A study of Bos taurus with 15 samples.

Results

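The comparison described here is that of pregnant with non-pregnant bovine endometrium on day 15. Its members are the 7 arrays labeled with phase P15 (pregnant, 3 arrays) or NP15 (estrous cycle, 4 arrays), of the 15 arrays analyzed here. Each array held RNA of the caruncular endometrium of 1 Japanese Black cow, taken from the uterine horn on the side of the corpus luteum, labeled with Cy3 and measured on a custom Agilent array of 60-base probes in 1 color. The methods count the day of artificial insemination as the first day, and a cow was taken as pregnant when a trophoblast was seen by eye in the opened horn. No other treatment of the cows is described, and their ages are not given in the sources used here. The methods describe collection after insemination and the labels call the NP15 arrays cyclic, so whether an embryo had been present earlier in the 4 NP15 cows is not known. The tissue was whole caruncle, which holds luminal epithelium, stroma, vessels and leukocytes, and on such bulk RNA fewer cells of a type and less RNA per cell cannot be told apart. The methods give 4 animals per stage, and 3 P15 arrays were analyzed here.

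Around this time of the cycle, the endometrium of a cow without an embryo acquires oxytocin receptors and releases pulses of prostaglandin F2-alpha that end the corpus luteum. In a pregnant cow, the elongating conceptus secretes interferon tau, which restrains those pulses and induces interferon-stimulated genes in the endometrium. The epithelium also supplies amino acids, sugars, lipids and secreted proteins that the unattached conceptus uses as it grows, and the caruncle is the place where it will attach.

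The values given below are signals divided by the median signal of their array, so that 1 is the array median, and differences are given as log2 of P15 over NP15 from limma, fitted on all 15 arrays. The median signal was from 315 to 409 in the NP15 arrays and from 545 to 686 in the P15 arrays. From 78.4 to 85.1% of the probes lay well above background in the NP15 arrays, and from 78.6 to 88.3% in the P15 arrays. The 4 NP15 arrays lay on 3 slides scanned on 3 days, and the 3 P15 arrays lay on 2 other slides scanned on 1 other day, so no slide or scan day held both groups. Between arrays, r over all tested probes was from 0.981 to 0.989 within P15. The r of NP15 replicate 3 with the other NP15 arrays was from 0.952 to 0.964, and r among those 3 was from 0.955 to 0.978. With the P15 arrays, r was from 0.970 to 0.980 for NP15 replicate 3 and from 0.957 to 0.972 for the other NP15 arrays. Of the defining markers of the tissue, 13 of 13 epithelial, 8 of 8 stromal and 7 of 8 endothelial genes lay well above background in all 7 arrays. Of 25 trophoblast genes on the array, 12 were well above background in none of the 7 arrays and 3 in all of them.

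A probe was called when its Benjamini-Hochberg adjusted p was below 0.05 and its fold change was over 2. Of 13164 probes tested, limma called 105 on day 15, or 0.798%, of which 46 (0.349%) were higher and 59 (0.448%) were lower in P15. In all 105 of them, every P15 array lay beyond every NP15 array, which the call rule favors. Over all tested probes the groups did not overlap for 5.93% with P15 higher and for 9.71% with P15 lower. The split between the directions moved with the scaling: on the authors' log2 table, 93 probes were called and 62.4% of them were higher, against 43.8% with the array median. The called probes named 55 genes, 19 higher and 36 lower, and the other 50 had no symbol. The count depended on single arrays and on the scan day. It was 4, 6 and 4 without P15 replicate 1, 2 and 3, and 39, 8, 344 and 127 without NP15 replicate 1, 2, 3 and 4. When the scan day entered the fit as a random effect, no probe was called (0), and 692 had an unadjusted p below 0.05. The methods' t-test at their 2-fold threshold gave 433 probes at an unadjusted p below 0.05 and 0 after Benjamini-Hochberg adjustment. Which of these calls come from pregnancy and which from the scan day cannot be told apart by these arrays.

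The called probes differed in base composition between the directions, so the probes of 6 leading genes are shown first. They are the 3 leading rises with the lowest and the 3 leading falls with the highest share of G and C, each given by the first 30 of its 60 bases as in the deposited probe table, 5′ to 3′, with G and C in capitals.
EFNB1: aaataatGtaaaGatGttttGtataaaCtC
TMEM16H: aataGGCGattatttatttGtttttaattt
CDKN2D: tatGGaaaatattGttGtGtGtGtaattta
PTPA: CCCCaGGGCCCCCaCaCCaCCGCCttCCtG
TMEM129: GCCaGCCGCGtGCCCtGCCCCaCCtGCCGC
SOST: tCGGGCCCGaGGCCGCGCGGCCGCaaaCGG
Over the whole probe, the probes of EFNB1, TMEM16H and CDKN2D held 21.7, 21.7 and 25% G and C, and those of PTPA, TMEM129 and SOST held 78.3, 78.3 and 85%.

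The median share of G and C was 35% among probes called higher, 51.7% among probes called lower and 43.3% among all tested probes. The median log2 fold change went from 0.22 over the 2685 probes with up to 35% G and C to -0.31 over the 2514 probes with over 50%. Of the first class, 30 probes were called higher and 2 lower. Of the second, 2 were called higher and 30 lower. In the probes with over 50% G and C, the median log2 signal was -0.49, -0.33 and -0.38 in the 3 P15 arrays and from -0.10 to 0.07 in the 4 NP15 arrays, so the groups did not overlap there. Across probes, r of the share of G and C with the day 15 difference was -0.32, and with the day 18 difference it was -0.13; all probes of an array share 1 labeling. When each array's classes were set to equal medians, 36 probes were called, of which 32 were among the 105. Calls that are also made with this correction are named as such below.

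**Figure D1:**
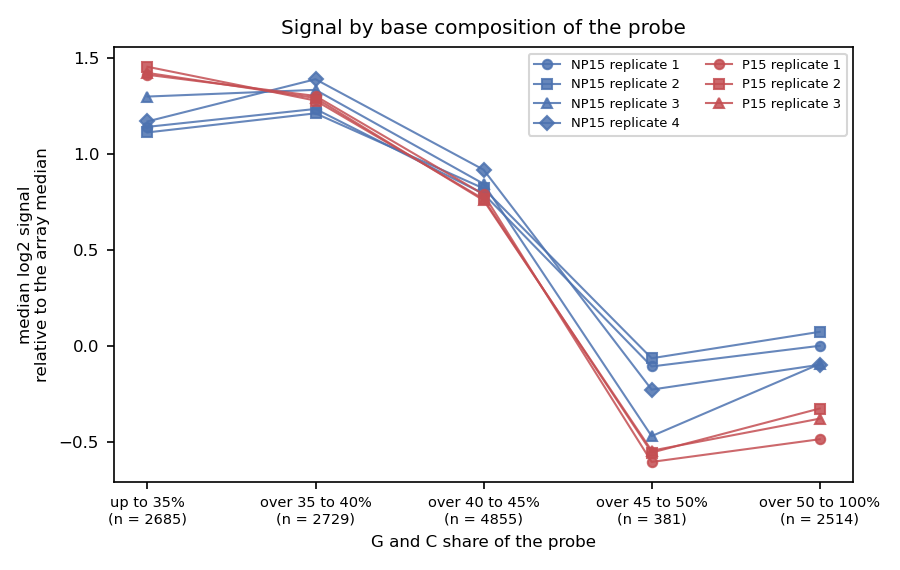
Median log2 signal relative to the array median (vertical axis) of the tested probes in 5 classes of G and C share (horizontal axis), with 1 line per array. In the class of over 50%, the 3 P15 arrays lie between -0.49 and -0.33 and the 4 NP15 arrays between -0.10 and 0.07.

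The leading genes were the 15 largest rises and the 15 largest falls among called genes whose signal was well above background on each array of the group with the higher level. Their adjusted p was from 0.0189 to 0.0454 by limma, and the exact permutation test of 4 against 3 arrays gave 26 of them 0.0286, the smallest p it allows. It gave 0.0571 for LOC524650, GRK5 and ALB, and 0.0667 for SPATA2L, which was measured on 2 P15 arrays. None of the 30 was called when any 1 P15 array was left out, 30 were called without NP15 replicate 3, and 8 were called with the classes of G and C at equal medians. With the scan day as a block, their adjusted p was from 0.415 to 0.610. After normexp background correction, 20 of the 29 that were tested were called. Differences that were smaller then by over 1.5 times were those of LOC524650 (0.01), TNP2 (-0.15), ALB (-0.07), ZNF180 (0.12), RUFY1 (0.89), GRK5 (0.97), SOST (-0.97), PPM1G (-0.98) and ELMOD3 (-1.07), and among the other called genes CYP3A4 (-0.73), PNCK (-0.72), RASGRP3 (0.55) and LOC652819 (0.52).

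**Figure D2:**
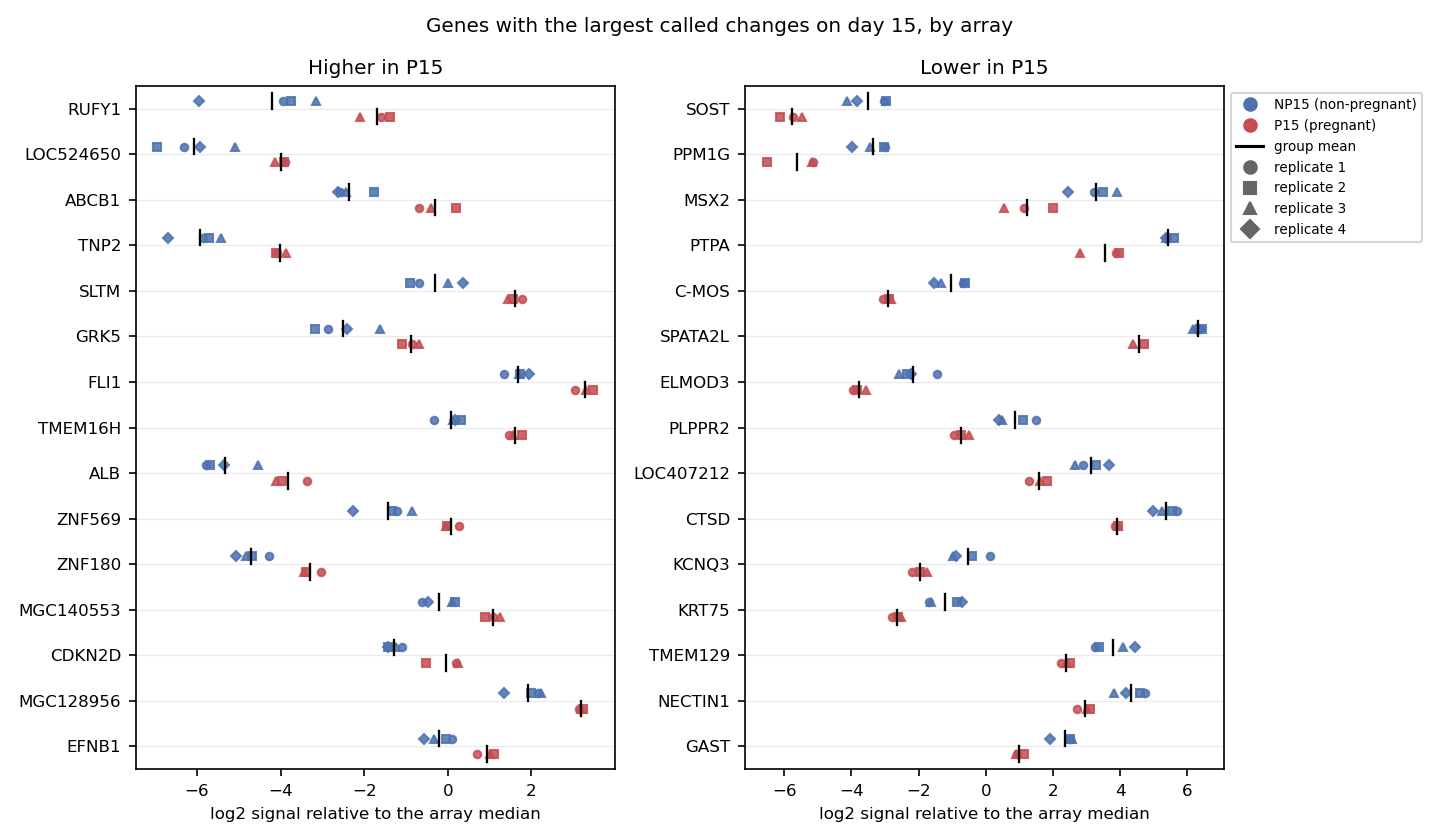
Log2 signal relative to the array median (horizontal axis) of the 15 largest rises and the 15 largest falls, with 1 point per array and a black line at the group mean. In each gene the P15 points lie beyond all NP15 points, and the log2 differences run from 1.15 to 2.51 and from -2.28 to -1.38.

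Among transporters and proteins of the membrane, ABCB1, the drug efflux pump P-glycoprotein, was at 0.166, 0.295, 0.184 and 0.161 array medians in NP15 and at 0.622, 1.14 and 0.754 in P15. Every P15 array was above every NP15 array, and ABCB1 rose by a log2 fold change of 2.06 (SE 0.33, adjusted p = 0.0196), also with the correction for base composition (2.16, adjusted p = 0.0269). A second, dimmer ABCB1 probe gave 0.74 (adjusted p = 0.558). Of 16 ATP-binding cassette transporters tested, ABCB1 was the 1 called, and 8 were higher and 8 lower. TMEM16H, an anoctamin of the family of calcium-activated channels and scramblases, rose by 1.53, with the P15 arrays from 2.78 to 3.45 and the NP15 arrays from 0.792 to 1.24. With the correction it had 0.85 (adjusted p = 0.189). KCNQ3, a subunit of slow voltage-gated potassium channels, fell by 1.43 on the log2 scale, from 0.504 to 1.09 in NP15 to between 0.219 and 0.299 in P15. None of the 126 solute carriers tested was called. The smallest p among them belonged to SLC25A29, a mitochondrial carrier of basic amino acids, at 42.5, 44.8, 48.2 and 23.9 in NP15 and 15.5, 14.7 and 12.7 in P15 (-1.44, SE 0.32, adjusted p = 0.0506). SLC5A3, the inositol transporter, had 1.46 (adjusted p = 0.0812), with all P15 arrays at 0.626 or more and all NP15 arrays at 0.338 or less.

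In vesicle trafficking, RUFY1, which binds early endosomes, was at 0.0650, 0.0741, 0.112 and 0.0161 in NP15 and at 0.333, 0.381 and 0.233 in P15. The P15 arrays were all higher, and this was the largest rise of a called gene with a symbol (2.51, SE 0.53, adjusted p = 0.0422). NP15 replicate 4 was not well above background, and after normexp the difference was 0.89 and not called (adjusted p = 0.0713). VAMP2, a SNARE protein of secretory vesicles, fell by 1.11 on the log2 scale, from 1.57 to 2.13 in NP15 to between 0.783 and 0.915 in P15. LOC786363, described in the array's table as similar to the endosomal sorting protein TSG101, fell by 1.24, also with the correction for base composition. ELMOD3, a GTPase-activating protein, fell by 1.63. Over the 161 trafficking genes tested, 1 was called higher (RUFY1) and 1 lower (VAMP2), 67.1% lay below 0 against 58.6% of all named genes, and the median was -0.13 against -0.09.

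Several transcription and chromatin factors were among the calls. FLI1, an ETS factor of endothelial and blood cells, was at 2.52, 3.30, 3.24 and 3.87 in NP15 and 8.25, 11.1 and 9.92 in P15. All P15 arrays were above all NP15 arrays, and FLI1 rose by 1.60 (SE 0.30, adjusted p = 0.0246), also with the correction (1.43, adjusted p = 0.0404). MSX2, a homeobox repressor that with its relative MSX1 acts in the uterus around implantation, was at 9.27, 11.3, 15.1 and 5.44 in NP15 and at 2.20, 3.97 and 1.47 in P15. The groups did not overlap, and MSX2 fell by 2.04 on the log2 scale (SE 0.39, adjusted p = 0.0281). With the correction it had -1.94 (adjusted p = 0.0612). MSX1 was at 54.9, 56.1, 14.6 and 35.5 in NP15 and at 20.5, 25.4 and 14.5 in P15. NP15 replicate 3 lay at the level of P15, and the difference of -0.86 was not called (adjusted p = 0.338). HOXA10, another homeobox factor of the receptive uterus, was higher in all P15 arrays (89.1, 98.3 and 104) than in all NP15 arrays (49.5, 40.5, 85.7 and 64.4), but was not called (0.75, adjusted p = 0.227). Of 30 homeobox factors tested, 15 were higher and 15 lower, and MSX2 was the 1 called.

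The zinc finger genes ZNF569 and ZNF180 rose by 1.49 and 1.41, but ZNF180 was well above background in 2 of 4 NP15 arrays and had 0.12 after normexp (adjusted p = 0.669). NR1I3, the nuclear receptor CAR that senses foreign compounds in the liver, fell by 1.33 on the log2 scale, from 1.81 to 2.23 in NP15 to between 0.637 and 0.933 in P15. CYP3A4, a cytochrome of drug and steroid metabolism, fell by 1.71, also with the correction, but was well above background in 3 of 4 NP15 and 1 of 3 P15 arrays. FOXH1, a partner of SMAD proteins in activin and nodal signaling, fell by 1.18. HDAC10, a deacetylase, fell by 1.03. It was the 1 called gene of 69 chromatin genes tested, whose median was -0.08.

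RNA-related genes were called in both directions. SLTM, a nuclear RNA-binding modulator of transcription, was at 0.621, 0.532, 1.01 and 1.29 in NP15 and at 3.43, 2.96 and 2.74 in P15. All P15 arrays were higher, and SLTM rose by 1.90 (SE 0.31, adjusted p = 0.0196), also with the correction (1.90, adjusted p = 0.0167). It was the 1 called gene of 109 nuclear RNA-binding and splicing genes, of which 63 were lower. MGC128956, described as similar to pseudouridylate synthase 3, rose by 1.26, and MGC140553, described as similar to iron-responsive element binding protein 1, rose by 1.28.

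A pair of aminoacyl-tRNA synthetases was called, in opposite directions. MARS1, the cytosolic synthetase for methionine, was at 1.76, 1.98, 2.03 and 1.38 in NP15 and at 3.92, 3.42 and 4.32 in P15, and rose by 1.13 (SE 0.24, adjusted p = 0.0432). SARS2, the mitochondrial one for serine, was at 4.22, 4.03, 2.84 and 3.6 and at 1.32, 1.75 and 1.57, and fell by 1.24 on the log2 scale (SE 0.21, adjusted p = 0.0196). In neither gene did the groups overlap, and neither was called with the correction (0.45 and -0.96). The probe of MARS1 held 23.3% G and C, and that of SARS2 held 55%. MGC151783, described as similar to the mitochondrial synthetase for phenylalanine, fell by 1.19. DHPS, which makes the hypusine of translation factor EIF5A, fell by 1.23. Over the 59 translation factors and synthetases tested, 26 were higher and 33 lower.

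Genes of phosphorylation and signaling were called in both directions. PTPA, an activator of protein phosphatase PP2A, was at 41.6, 49.0, 41.5 and 41.2 in NP15 and at 14.5, 15.7 and 6.92 in P15. The groups lay well apart, and PTPA fell by 1.89 on the log2 scale (SE 0.31, adjusted p = 0.0196), also with the correction (-1.45, adjusted p = 0.0383). PPM1G, a nuclear serine and threonine phosphatase, fell by 2.25, from 0.125, 0.121, 0.0925 and 0.0631 to 0.0283, 0.0109 and 0.0278, with 2 of 3 P15 arrays well above background. These were the 2 called of 70 protein phosphatase genes, of which 41 were lower and 29 higher. GRK5, a kinase that desensitizes G protein-coupled receptors, rose by 1.64, and GNG3, a G protein gamma subunit, fell by 1.29. RASGRP3, an activator of Ras, rose by 1.07. PNCK, a calmodulin-dependent kinase, fell by 1.22. CDKN2D, an inhibitor of the cyclin D kinases CDK4 and CDK6, was at 0.471, 0.372, 0.425 and 0.371 in NP15 and at 1.14, 0.693 and 1.18 in P15, and rose by 1.26 (SE 0.26, adjusted p = 0.0390). With the correction it had 0.58 (adjusted p = 0.357). PLPPR2, a membrane protein related to the lipid phosphate phosphatases, fell by 1.61.

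Ligands and other secreted proteins were called in both directions. SOST, sclerostin, an inhibitor of Wnt signaling, fell by 2.28 on the log2 scale, from 0.122, 0.128, 0.0565 and 0.0695 in NP15 to 0.0187, 0.0144 and 0.0226 in P15, with 1 of 3 P15 arrays well above background, so the size of the fall depends on values at background (-0.97 after normexp). A second, brighter SOST probe gave 0.83 (adjusted p = 0.603), so the 2 probes disagreed in direction. GAST, the precursor of gastrin, was at 5.65, 5.68, 5.91 and 3.73 in NP15 and at 1.91, 2.19 and 1.85 in P15, and fell by 1.38. MLN, motilin, fell by 1.1, and BGLAP, osteocalcin, by 1.31. LOC407212, described as prothrombin, was at 7.37, 9.76, 6.35 and 12.6 in NP15 and at 2.46, 3.55 and 3.06 in P15, and fell by 1.55. LOC521383, described as similar to the secreted phospholipase PLA2G2A, fell by 1.33 from 0.606, 0.634, 0.526 and 0.604 to 0.191, 0.290 and 0.235, also with the correction. In the opposite direction, SEMA3C, a secreted semaphorin that guides axons and vessels, was at 13.8, 13.8, 23.9 and 16.5 in NP15 and at 32.2, 35.8 and 38.6 in P15, and rose by 1.1 (SE 0.22, adjusted p = 0.0359). EFNB1, the membrane-bound ligand ephrin-B1, rose by 1.15. With the correction, SEMA3C had 0.80 and EFNB1 had 0.47, and neither was called. ALB, albumin, rose by 1.52, was well above background in 1 of 4 NP15 arrays and all 3 P15 arrays, and had -0.07 after normexp background correction.

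The called genes of lysosomes, matrix and cell junctions were lower in P15. CTSD, the lysosomal protease cathepsin D, was at 51.2, 47.0, 37.7 and 31.4 in NP15 and at 14.4, 15.1 and 15.2 in P15. The P15 arrays were close together and all lower, and CTSD fell by 1.47 on the log2 scale (SE 0.31, adjusted p = 0.0430). It was the 1 called of 86 matrix proteases and inhibitors, of which 54 were lower, and its probe held 76.7% G and C. ITGA5, the alpha subunit of the fibronectin receptor, fell by 1.20 and was the 1 called of 80 matrix and integrin genes, of which 40 were higher and 40 lower. NECTIN1, an adhesion protein of adherens junctions, was at 26.7, 24.1, 14.1 and 18.2 in NP15 and at 6.5, 8.6 and 8.1 in P15, and fell by 1.39, whereas a second NECTIN1 probe had -0.77 (adjusted p = 0.399). KRT75, a type II keratin, was at 0.312, 0.550, 0.323 and 0.605 and at 0.144, 0.162 and 0.175, and fell by 1.42, also with the correction. MYO1A, a myosin of the brush border, fell by 1.16. TMEM129, a ubiquitin ligase of the endoplasmic reticulum, fell by 1.40, and CPA5, a carboxypeptidase, by 1.03.

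Called genes best known from germ cells were TNP2 and C-MOS, given here with SPATA2L, a relative of such a gene, and with LOC524650. TNP2, which packs sperm DNA, was well above background in none of the 4 NP15 and in all 3 P15 arrays. Against the lowest signal well above background in each NP15 array, it was 1.63-fold higher in P15. It was called (adjusted p = 0.0189), also with the correction. After normexp background correction it had -0.15, so its direction depended on the background. LOC524650, described as an EF-hand domain protein, was likewise not well above background in NP15 and was 1.68-fold higher in P15 on the same measure. It was called (adjusted p = 0.0246), also with the correction. After normexp it had 0.01 (adjusted p = 0.983), so its rise depended on the background. C-MOS, the kinase that holds oocytes in meiosis, fell by 1.88 on the log2 scale, from between 0.345 and 0.654 to between 0.119 and 0.141. SPATA2L, a relative of a spermatogenesis gene, was at 83.8, 86.9, 71.4 and 77.4 in NP15 and at 26.3 and 20.8 in P15 replicates 2 and 3, and fell by 1.77, also with the correction. The spot of P15 replicate 1 had an outlier flag and did not enter the fit. Of 26 male germ cell genes tested, 1 was called higher and 1 lower. The remaining called genes are known by a number, LOC652819 (1.05), MGC128900 (-1.31) and MGC139963 (-1.06), the last also called with the correction. Another 3 probes of LOC652819, 1 of them brighter, had 0.02, 0.48 and 0.12 and were not called. The called probes without a symbol, 27 higher and 23 lower, had log2 fold changes from 1.01 to 2.92 and from -1.97 to -1.07.

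Of the 7244 named genes tested, 3002 were higher and 4242 lower in P15, and the median was -0.09. An unadjusted p below 0.05 was reached by 4.82% of the named genes with P15 higher and by 9.77% with P15 lower, and over all tested probes by 5.92% and 8.94%. Over 34 lists of functionally related genes, which share members with each other, the medians ran from -0.42 to 0.44, and 29 lay within 0.2 of the median of all named genes. The sign of 17 list medians changed under another scaling of the arrays or after normexp background correction, and that of 9 with the correction for base composition. The lists below include those farthest from the median of all named genes, those of the endocrine background, and some others that lie near that median.

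**Figure D3:**
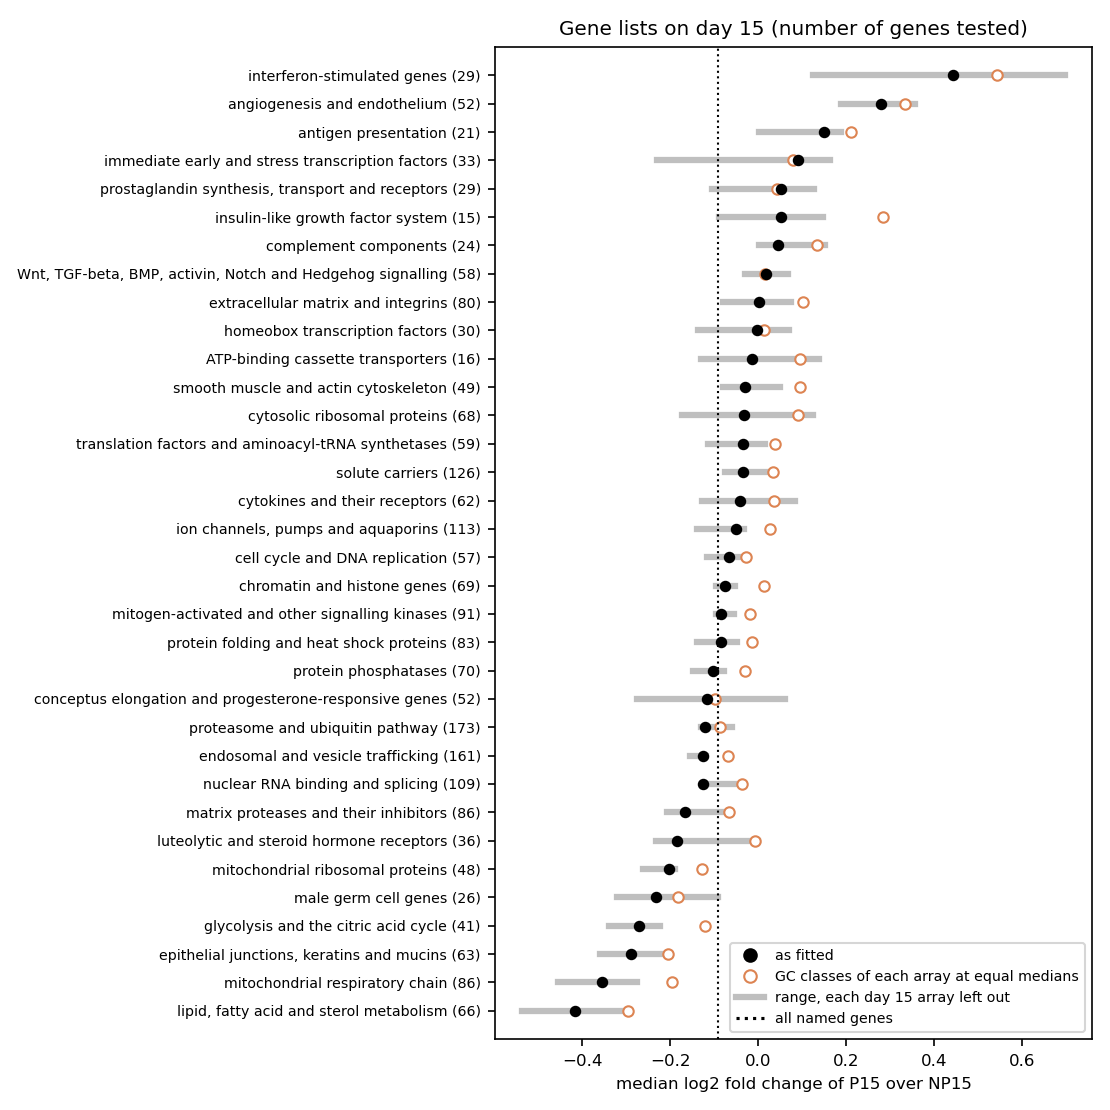
Median log2 fold change of P15 over NP15 (horizontal axis) of 34 gene lists, as fitted (filled points) and with classes of G and C share at equal medians (open points). The gray bars span the medians with each day 15 array left out, and the dotted line is the median of all named genes (-0.09). Interferon-stimulated genes lie highest (0.44) and lipid metabolism lies lowest (-0.42).

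Genes of oxidative metabolism lay lower in P15 as lists, with 1 member called. In the respiratory chain, which carries out oxidative phosphorylation in mitochondria, 71 of 86 genes tested (82.6%) were lower and 15 higher, with a median of -0.36. An unadjusted p below 0.05 was reached by 18 lower and 2 higher. ATP5MK, a small subunit of ATP synthase, was at 5.93, 7.48, 6.24 and 4.93 in NP15 and at 2.48, 2.86 and 2.90 in P15, and fell by 1.15 on the log2 scale (SE 0.21, adjusted p = 0.0246). COX6A1, a subunit of cytochrome c oxidase, fell by 1.18 on 1 probe, also with the correction, whereas its brighter probe, which represents it in the list, had -0.37 (adjusted p = 0.514). The mean of the list over its genes, relative to their mean over the 7 arrays, was from -0.21 to -0.15 in P15 and from -0.14 to 0.40 in NP15, so the lowest NP15 array lay next to P15. With the correction the median was -0.20, with 73 of 86 lower, and with array weights it was -0.16.

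Of 48 mitochondrial ribosomal proteins, 35 were lower and 13 higher, with a median of -0.20, and none was called. MRPS18B was at 3.90, 2.46, 1.79 and 3.14 in NP15 and at 1.15, 1.54 and 1.36 in P15 (-1.02, adjusted p = 0.180). MRPL11 had -1.0 (adjusted p = 0.183) and MRPL48 had -0.82 (adjusted p = 0.185), each with groups that did not overlap. The 68 cytosolic ribosomal proteins had a median of -0.03, with 30 higher and 38 lower. In glycolysis and the citric acid cycle, 31 of 41 genes were lower, with a median of -0.27, and none was called. ENO1, the glycolytic enolase, was at 7.25, 3.24, 3.43 and 4.22 in NP15 and at 1.72, 1.83 and 1.97 in P15, with all P15 arrays lower (-1.22, SE 0.39, adjusted p = 0.174). With the correction, the median was -0.12.

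Genes of lipid, fatty acid and sterol metabolism had the lowest median of the 34 lists, -0.42 over 66 genes, with 50 lower and 16 higher. It was -0.30 with the correction and from -0.54 to -0.30 with each array left out. None was called. PNPLA2, the lipase that opens triglyceride breakdown, was at 3.11, 4.10, 3.14 and 3.41 in NP15 and at 1.67, 1.95 and 1.86 in P15 (-0.91, adjusted p = 0.0823). NPC2, which moves cholesterol out of lysosomes, had -0.85 (adjusted p = 0.0914). SCARB1, the receptor for high-density lipoprotein, had the opposite sign, at 1.32, 1.57, 1.15 and 2.08 in NP15 and at 3.16, 4.39 and 3.72 in P15 (1.32, adjusted p = 0.124). FABP3, a fatty acid binding protein, was at 13.0, 2.52, 11.5 and 11.7 in NP15 and at 4.44, 2.85 and 5.01 in P15. Its groups overlapped through NP15 replicate 2, and it was not called (-1.03, adjusted p = 0.602).

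Epithelial genes lay lower as well. Of 63 junction, keratin and mucin genes, 46 were lower, 2 of which were called (KRT75 and NECTIN1), with a median of -0.29. Their summed signal overlapped, from 577 to 1026 array medians in NP15 and from 587 to 614 in P15. Their mean deviation was -0.11 in NP15 replicate 3, within the P15 range of -0.22 to -0.08. Of the 13 markers of luminal and glandular epithelium, 13 were lower in P15, with a median of -0.60 (-0.95 without NP15 replicate 3), and none was called. The groups overlapped in each of the 13. Their summed signal was from 319 to 400 array medians in NP15 and from 162 to 238 in P15. Their mean deviation was -0.23 in NP15 replicate 3 and from 0.40 to 0.66 in the other 3 NP15 arrays, against -0.75 to -0.15 in P15, so NP15 replicate 3 lay within the range of P15. EPCAM, an adhesion protein of epithelia, was at 114, 85.5, 44.4 and 140 in NP15 and at 52.0, 62.7 and 41.5 in P15 (-0.78, adjusted p = 0.312). SPINT1, an inhibitor of membrane proteases, had -1.24 (adjusted p = 0.210) and FOXA2, the factor of uterine glands, had -1.55 (adjusted p = 0.326). EZR, which links the membrane to actin in microvilli and is not among these 13 markers, had -1.0 (adjusted p = 0.190). The part of the epithelial share of the tissue in the differences above was not tested.

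Stromal and vascular genes lay the other way. Of 8 stromal markers, 7 were higher, with a median of 0.34 (0.59 without NP15 replicate 3), and none was called. VIM, vimentin, was at 21.2, 16.3, 16.9 and 29.6 in NP15 and at 46.6, 34.2 and 56.9 in P15 (1.14, adjusted p = 0.112). The summed stromal signal was from 858 to 1695 in NP15 and from 1143 to 1261 in P15, so the groups overlapped. TMSB10, which binds actin monomers, was at 17.1, 19.0, 52.1 and 22.3 in NP15 and at 99.9, 60.7 and 99.5 in P15 (1.77, SE 0.40, adjusted p = 0.0506). The P15 arrays were all higher, with NP15 replicate 3 the nearest to them. TMSB10 is not among the 8 stromal markers. Like EZR, it was named from the list of smooth muscle and actin cytoskeleton genes. Of the 49 genes of that list tested, 22 were higher and 27 lower, with a median of -0.03, and none was called.

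Of 52 genes of angiogenesis and endothelium, 32 were higher and 20 lower, with a median of 0.28, or 0.33 with the correction, from 0.19 to 0.36 with each array left out and 0.06 after normexp. FLI1 and EFNB1 were called higher and none was called lower. Of the 8 endothelial markers, 7 were higher, with a median of 0.44, or 0.28 without P15 replicate 2, 0.68 without NP15 replicate 4 and 0.10 after normexp. KDR, the main receptor of VEGF, was at 1.44, 2.90, 1.15 and 2.41 in NP15 and at 3.18, 3.93 and 4.04 in P15 (1.00, adjusted p = 0.343). TEK, the angiopoietin receptor, was at 5.07, 7.05, 8.06 and 6.77 and at 10.5, 13.9 and 11.9 (0.85, adjusted p = 0.183). Both were higher in every P15 array, and neither was called. They were the 2 of the 8 markers whose groups did not overlap, against 5.93% of all tested probes with P15 higher. FLT1, another VEGF receptor, overlapped (0.84, adjusted p = 0.480) and had -0.10 after normexp. The summed endothelial signal was from 11.1 to 18.6 in NP15 and from 19.4 to 27.1 in P15, without overlap. TEK alone had a mean of 6.74 in NP15 and 12.1 in P15, so the sum largely follows that gene. The mean deviation of these 8 markers was from -0.85 to 0.22 in NP15 and from 0.08 to 0.54 in P15, with overlap. For the 52 genes of angiogenesis and endothelium, the summed signals overlapped too, from 390 to 680 in NP15 and from 516 to 586 in P15. The part of the endothelial signal in the differences of FLI1 and EFNB1 was not tested. Of the 6 erythrocyte genes tested, 5 were lower, with a summed signal from 23.1 to 38.2 in NP15 and from 17.7 to 19.8 in P15. Of 16 markers of T and natural killer cells, 12 were higher and 4 lower, and of 13 myeloid markers, 7 were higher and 6 lower. The medians of the T and natural killer cell and myeloid lists were 0.15 and 0.34, and -0.28 and -0.17 after normexp. The summed signals of both overlapped, as did those of B cells and of smooth muscle.

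**Figure D4:**
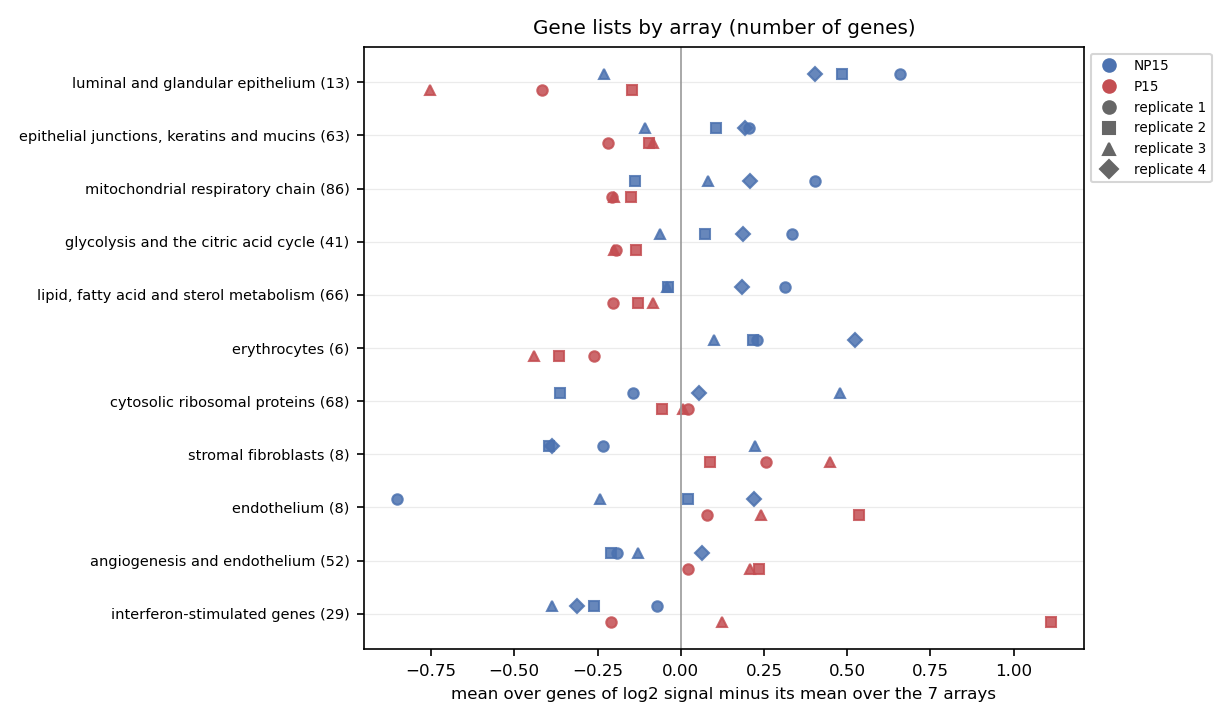
Mean over the genes of a list of log2 signal minus each gene's mean over the 7 arrays (horizontal axis), with 1 point per array. The epithelial markers are from -0.75 to -0.15 in P15 and from 0.40 to 0.66 in NP15 replicates 1, 2 and 4, with NP15 replicate 3 at -0.23; among interferon-stimulated genes, P15 replicate 2 is farthest to the right, at 1.11.

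The genes of luteal regression were examined next. Of 36 receptors and enzymes of steroid and luteolytic signaling tested, 15 were higher and 21 lower, and none was called. OXTR, the oxytocin receptor, was at 2.59, 2.04, 1.19 and 3.46 in NP15 and at 1.44, 2.11 and 1.52 in P15. The groups overlapped (-0.38, SE 1.38, adjusted p = 0.930). This SE pools the spread within all 4 groups, so it also holds that of the day 18 arrays. ESR1, the estrogen receptor alpha, was at 0.0625, 0.0684, 0.0863 and 0.0660 in NP15 and at 0.0524, 0.0395 and 0.0581 in P15. All P15 arrays were lower and 2 of 3 were well above background, but it was not called (-0.51, SE 0.39, adjusted p = 0.574). The exact permutation test on the day 15 arrays gave this probe 0.0286, the smallest p it allows. A second ESR1 probe had 0.51. PGR, the progesterone receptor, was at 4.77, 4.97, 5.67 and 3.83 and at 4.48, 6.47 and 4.8, with overlap (0.12, adjusted p = 0.925). The smallest p of the list belonged to CYP17A1, a steroid hydroxylase, with -0.87 (adjusted p = 0.0984). HSD17B13, a lipid droplet dehydrogenase, had -1.60 (adjusted p = 0.217) with P15 replicate 1 within the range of NP15, and NR2F2, a stromal nuclear receptor, had 0.73 (adjusted p = 0.252).

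Of 29 genes of prostaglandin synthesis, transport and reception, 16 were higher and 13 lower, with a median of 0.05 (-0.25 after normexp background correction), and none was called. PTGS2, the inducible cyclooxygenase, was at 56.2, 11.8, 13.5 and 37.1 in NP15 and at 28.3, 40.4 and 27.2 in P15. The NP15 arrays lay on both sides of P15 (0.39, SE 0.76, adjusted p = 0.858). AKR1B1, a synthase of prostaglandin F2-alpha in bovine endometrium, was at 223, 189, 75.4 and 102 and at 73.1, 105 and 65.9 (-0.75, SE 0.39, adjusted p = 0.383). PTGES, a synthase of prostaglandin E2, was at 0.664, 0.615, 5.04 and 0.484 in NP15 and at 1.63, 1.04 and 3.6 in P15. NP15 replicate 3 was the highest of the 7 arrays, and the other 3 NP15 arrays were below P15 (0.87, SE 0.71, adjusted p = 0.603). The receptors for prostaglandin E2 had 0.05 for PTGER2, 0.92 for PTGER4 (adjusted p = 0.524) and -1.17 for PTGER1 (adjusted p = 0.183), the last lower in every P15 array. Of the enzymes that degrade prostaglandins, HPGD had -0.65 (adjusted p = 0.691) and PTGR2 had 0.84 (adjusted p = 0.111), higher in every P15 array. PLA2G16, a phospholipase, had -0.72 (adjusted p = 0.299). PTGFR, the receptor for prostaglandin F2-alpha, had no tested probe.

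**Figure D5:**
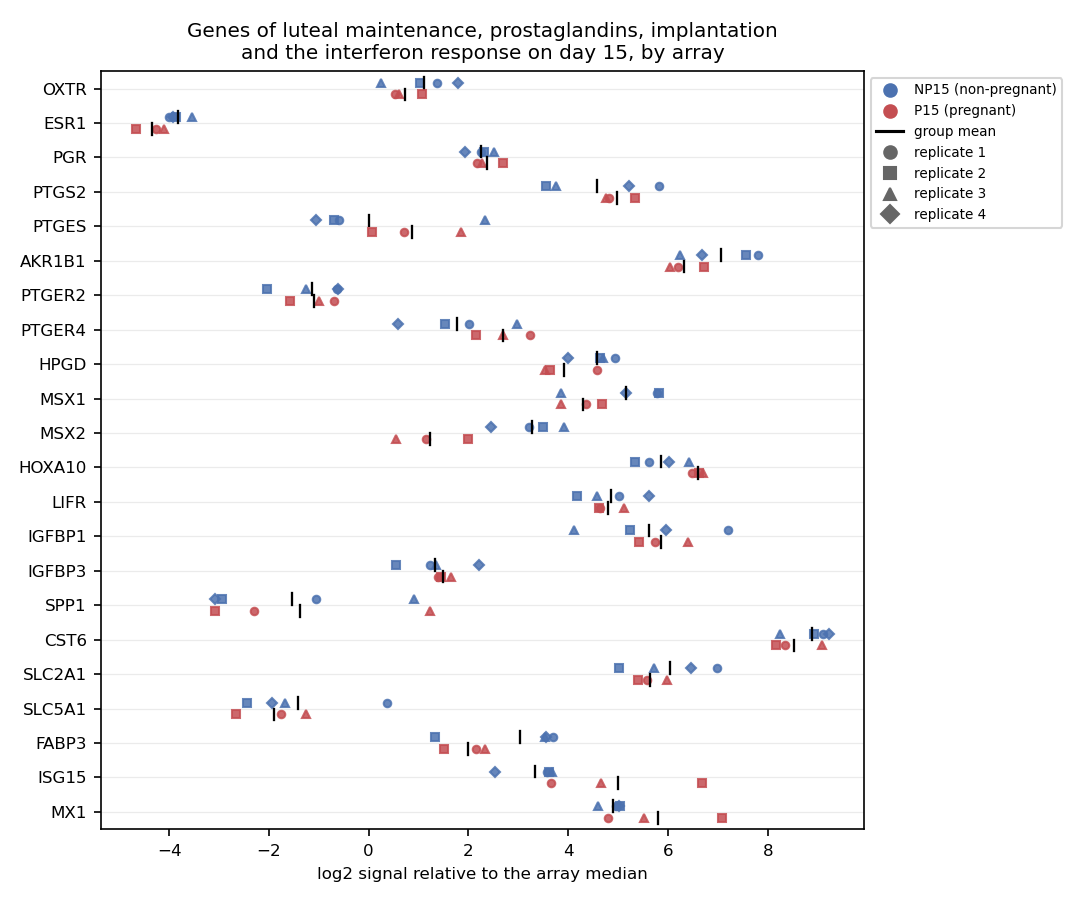
Log2 signal relative to the array median (horizontal axis) of 22 genes of luteal maintenance, prostaglandins, implantation and the interferon response, with 1 point per array and a black line at the group mean. MSX2 is the gene of these that was called (log2 difference of -2.04); OXTR, PGR and PTGS2 overlap between the groups.

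Genes known for support of conceptus growth and for response to progesterone showed wide spread within the groups. Of 52 tested, 22 were higher and 30 lower, and MSX2 was the 1 called. SLC2A1, the main glucose transporter, was at 126, 32.3, 52.4 and 87.5 in NP15 and at 47.7, 41.9 and 62.9 in P15 (-0.39, SE 0.51, adjusted p = 0.770). SLC5A1, a glucose cotransporter, had -0.47 (adjusted p = 0.756). IGFBP1, a binding protein of insulin-like growth factors, was at 147, 37.8, 17.2 and 61.9 and at 53.6, 42.5 and 84.4 (0.23, adjusted p = 0.928), and IGFBP3 had 0.17 (adjusted p = 0.887). SPP1, osteopontin, was at 0.482, 0.130, 1.88 and 0.118 and at 0.203, 0.118 and 2.35, with NP15 replicate 3 and P15 replicate 3 far above the others (0.16, adjusted p = 0.969). CST6, a protease inhibitor, had -0.35 (adjusted p = 0.610), and LIFR, the receptor for leukemia inhibitory factor, had -0.06 (adjusted p = 0.963). LGALS9, a galectin, was well above background in none of the 4 NP15 and in all 3 P15 arrays, and was not called (adjusted p = 0.104). Against the lowest signal well above background in each NP15 array it was 1.5-fold higher in P15. After normexp background correction it had -0.23, so its direction depended on the background. Of 15 genes of the insulin-like growth factor system, 8 were higher and 7 lower.

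Of 57 genes in the list of cell cycle and DNA replication, which does not hold CDKN2D, 22 were higher and none was called. CHEK2, a checkpoint kinase, had -1.08 (adjusted p = 0.0837), and RFC5, a subunit of the clamp loader, was at 0.259, 0.268, 0.238 and 0.238 in NP15 and at 0.120, 0.0942 and 0.118 in P15 (-1.19, adjusted p = 0.0861). RB1, the retinoblastoma protein, had 1.09 (adjusted p = 0.198), with NP15 replicate 4 at the level of P15.

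Interferon-stimulated genes had the highest median of the 34 lists. Of 29 tested, 24 were higher and 5 lower, with a median of 0.44, and an unadjusted p below 0.05 was reached by 10 higher and 1 lower. None was called. ISG15, a ubiquitin-like modifier, was at 11.9, 12.2, 12.7 and 5.77 in NP15 and at 12.6, 103 and 25 in P15 (1.65, SE 0.55, adjusted p = 0.188). MX1, an antiviral GTPase, was at 31.0, 32.9, 24.3 and 32.6 and at 27.8, 135 and 46.0 (0.89, SE 0.40, adjusted p = 0.313). In both, P15 replicate 2 was far above the other arrays and P15 replicate 1 lay within the range of NP15. The median of the list was 0.13 without P15 replicate 2 and 0.70 without P15 replicate 1. Of 21 genes of antigen presentation, 13 were higher, with a median of 0.15.

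On day 18, where 4 NP18 and 4 P18 arrays were compared, limma called 757 probes, or 5.75% of those tested. Of the 105 probes called on day 15, 50 had the same sign on day 18 (47.6%, against 52.0% of all tested probes), and 6 were called on both days, 4 of them in the same direction. The test of the difference between the days called 358 probes, or 2.72%. The leading genes were chosen by their day 15 difference, which enters this test with the opposite sign, so calls among them are favored. Among the leading genes it called SLTM, which had 1.90 on day 15 and -0.35 on day 18 (adjusted p of the difference = 0.0152), ABCB1 with 2.06 and -0.04 (adjusted p = 0.0267), and KRT75 with -1.42 and 0.27 (adjusted p = 0.0237). C-MOS had -1.88 on day 15 and 1.41 on day 18, both called, in opposite directions (adjusted p of the difference = 0.00921). CYP3A4 had -1.71 and 1.17, also both called (adjusted p = 0.00851). ALB had 1.52 and 1.29, both called in the same direction (adjusted p of the difference = 0.824), though its day 15 value was -0.07 after normexp. MSX2 had -2.04 and -0.77, PTPA -1.89 and -0.56, and CTSD -1.47 and -0.94, and the difference was not called in these (adjusted p = 0.204, 0.0955 and 0.534). The respiratory chain list, with a median of -0.36 on day 15, had 0.29 on day 18, and the list of interferon-stimulated genes had 0.44 and 3.28. The groups of day 18 lay on other slides and scan days than those of day 15. With a block for the scan day, the test between the days called 0 probes, with 844 at an unadjusted p below 0.05.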

How the data were processed

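The deposited scanner tables give each spot a processed signal, a linear intensity from which the authors' Agilent Feature Extraction 9.5 had subtracted the background, with a surrogate value for spots at background and no scaling between arrays. A second deposited table holds the authors' log2 values, which were found to be scaled to the 75th percentile of each array and served as an alternative. Intensities were scaled to the array median of the 15208 non-control probes, and log2 was taken. Control spots and outlier-flagged spots were dropped and saturated spots (0 to 3 per day 15 array) were kept. The 13164 probes that were well above background in 3 or more arrays entered limma 3.58.1 (R 4.3.3), fitted to all 15 arrays with a mean for each of the 4 groups. The contrasts were P15 minus NP15 and the difference of this from P18 minus NP18. The call rule was an adjusted p (Benjamini-Hochberg) below 0.05 with a change over 2-fold, and every adjusted p in the text is from this limma fit unless another is named. The exact permutation test over 4 and 3 arrays was two-sided. For the correction for base composition, which was added after seeing the data, the median deviation of each class of G and C share was removed from each array.

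Of the probes, 8349 had a symbol (8004 distinct), from the array's table and the RefSeq genes of ARS-UCD2.0, taken for their names alone. No coordinates were given, and the genome build of the probes is not given in the sources used here. A list took the brightest probe of each gene. The named genes were the 15 largest called rises and 15 largest called falls with a symbol, the called members of each list described (otherwise its 3 smallest p), and a set of endocrine, implantation and interferon genes whatever their values. Other called genes were given by name, and some genes that these rules name are not reported here. The members, lists and rules were chosen with earlier results of these data known.

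Groups came from the phase in the labels. Each array is described as 1 cow. The limma p-values rest on the spread between the arrays of single cows within groups, pooled over the 15 arrays of both days. Among the NP15 arrays this spread also holds differences between slides and scan days. Precision is limited by the number of arrays, 3 and 4. In simulated data with 200 of 13130 probes changed on day 15, the fit recovered 55.5% at a log2 change of 1.5 and 88.5% at 2.5. Replicate numbers were not taken as pairs, because no label pairs the cows. The deviations of same-numbered arrays had r of -0.03, 0.11 and 0.30, and those of differently numbered arrays had r from -0.33 to 0.13. These few values cannot decide whether the cows were paired. Alternatives were other scalings, background correction, filters, array weights, variance models, the day 15 arrays alone, blocks for slide, scan day and replicate number, no fold limit, 1 probe per symbol, the methods' t-test, and leaving out each array. Python 3.11.15 was used for tables (pandas 2.3.3, numpy 2.4.6) and plots (matplotlib 3.10.9).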

Additional observations from a re-analysis of the deposited data

Results flagged for a closer look

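In 8 of the 107 named genes, the highest or lowest NP15 array lay far from the other 3, with a gap divided by the range of the group above the limit of 0.829 for 4 samples; chance gives about 1 in 20. NP15 replicate 2 was high in PTPA (0.944) and low in NPC2 (0.864) and FABP3 (0.927). NP15 replicate 3 was high in PTGES (0.864) and in LOC652819 (0.925). NP15 replicate 4 was low in GAST (0.903), SLC25A4 (0.947) and ISG15 (0.917). The P15 group, with 3 arrays, was not tested in this way.

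In 33 of the 107 named genes, the effect of pregnancy on day 18 differed from that on day 15 by limma's test of the difference. Over all tested probes, this test called 2.72%. Many of the named genes were chosen by their day 15 difference, which enters this test with the opposite sign, so the choice favors such calls. The difference is given here as day 18 minus day 15 on the log2 scale. Among genes higher in P15 it was lower on day 18 for ABCB1 (-2.09), SLTM (-2.25), TMEM16H (-1.64), MARS1 (-1.79), RASGRP3 (-1.66) and LOC652819 (-1.43), and for PTGR2 (-1.44), SLC5A3 (-2.13) and VIM (-2.05), which were not called on day 15. Among genes called lower in P15 it was higher on day 18 for SOST (3.0), PPM1G (2.75), C-MOS (3.29), PLPPR2 (1.66), LOC407212 (1.58), KCNQ3 (1.92), KRT75 (1.69), NECTIN1 (1.40), COX6A1 (1.87), ATP5MK (1.19), SARS2 (2.09), FOXH1 (1.25), NR1I3 (1.87), GNG3 (1.46), LOC521383 (1.43), PNCK (1.85) and CYP3A4 (2.88). The same held for genes that were lower in P15 but not called on day 15, namely CYP17A1 (1.43), CHEK2 (1.73), PNPLA2 (1.41), SLC2A1 (2.95) and FABP3 (6.13). ISG15 (4.09) and MX1 (2.76) were higher in P15, also not called on day 15, and their difference was larger in the same direction on day 18. Each of the 4 groups lay on slides of its own, and with a random block for the scan day none of these differences passed the threshold.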

How the results depend on the processing

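The number of probes called on day 15 (105) was within 1.5 times of that under the 75th percentile scaling, quantile normalization, normexp, the authors' table, the 3 other filters, trend and robust variances, and no fold limit (93 to 134). It was 1004 with array weights, 2 with the day 15 arrays alone, 52 with the slide as a random block, 0 with a random block for the scan day, 57 with 1 probe per gene symbol and 36 with the classes of G and C at equal medians. The methods' t-test gave 433 without adjustment and 0 with it. With each array left out in turn it was from 4 to 344. The number that differed between the days (358) was 1398 after normexp, 1499 with array weights, 179 with the slide as a block, 0 with the scan day as a block and from 59 to 549 with each array left out. With the replicate number as a block, 8 probes were called on day 15 and 192 differed between the days, although no label pairs the cows by number. The share of higher calls was 62.4% with the 75th percentile and with the authors' table on day 15, against 43.8%, and for the difference between the days it was 57.1 and 57.3%, against 76.0%. The median over all tested probes was -0.06 with the array median, 0.04 with the 75th percentile and -0.14 after normexp. The causes of these shifts were not tested.

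Over the named genes, 1131 values under alternatives other than leaving out an array kept their direction and their side of the threshold, 296 lost a call, 35 gained one and 14 turned. After normexp, TNP2 had -0.15, ALB -0.0659, FLT1 -0.10, PTGER2 -0.0496 and LGALS9 -0.23. With array weights, PGR had -0.0126, SLC2A1 0.18 and SLC5A1 0.15. LIFR had 0.0381 with the 75th percentile, 0.11 with quantile normalization, 0.015 after normexp, 0.0359 in the authors' table and 0.34 with array weights, and SPP1 had -0.00888 with the classes of G and C. With each array left out, the value ran from -0.0379 to 0.23 for PGR, from -0.25 to 0.29 for PTGER2, from -0.29 to 0.20 for LIFR, from -0.28 to 0.75 for IGFBP1, from -0.10 to 0.46 for IGFBP3, from -1.15 to 1.01 for SPP1 and from -0.81 to 0.12 for SLC5A1. With an array left out, 462 values of named genes kept direction and side, 266 lost a call, 7 gained one and 14 turned. Over the gene lists, 535 medians under the alternatives moved by less than the spread between arrays and 66 by more. The list of trophoblast genes had no member under the filter of all 15 arrays. Weak genes are limited by the background: PPM1G, SOST, CYP3A4, PNCK and ESR1 lay below it in 1 or more P15 arrays.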
